A study of Macaca mulatta with 9 samples.

Results

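The panel carried 38 probes for chemokines and chemokine receptors among its 767 probes, taken as every probe whose name begins with CCL, CXCL, XCL, CX3C, CCR, CXCR or ACKR followed by a digit or by L or R. Of these, 24 were for ligands and 14 for receptors. Total RNA from formalin-fixed, paraffin-embedded biopsies of pig kidneys carried by rhesus macaques was counted on the nCounter Human Organ Transplant Panel, which captures transcripts with coloured probes and without amplification. The 9 libraries fell into 3 groups of 3. The first, labelled 1KO.1TG early R, is called 1KO.1TG here, and the others, both from 3KO.7TG donor pigs, are called early bx (3KO.7TG early bx) and late R (3KO.7TG late R). The labels used here name neither the altered genes of the 2 donor lines nor the drugs given, and do not spell out R or bx. All animals were recorded as male, with no age, and the extraction protocol calls the organ an allograft where the series calls it a xenograft. No pair of groups differs in 1 label alone: 1KO.1TG and early bx differ in line and in the R or bx ending, 1KO.1TG and late R in line and time, and late R and early bx in time and ending, so these cannot be told apart. Nothing states that the libraries of a group are from different animals, and p-values then reflect only the spread among these samples, which may be technical.

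Chemokines are small secreted proteins that guide leukocytes along gradients and arrest them on vessel walls, and their receptors are G-protein-coupled receptors carried by distinct leukocyte classes. In kidney grafts, CXCL8 and its relatives are known for drawing neutrophils, CCL2 for drawing monocytes, and the interferon-induced CXCL9, CXCL10 and CXCL11 for drawing activated T cells and NK cells through CXCR3. The panel's probes were designed for human transcripts, and which of the 2 species in the tissue supplied a chemokine signal is not known from these files. Levels are therefore compared between libraries for the same probe and never between probes. In bulk tissue, fewer cells of a type and less RNA per cell cannot be told apart.

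Library totals ranged from 657340 to 1620151 counts in 8 libraries, while 1KO.1TG replicate 3 held 21725 counts and is called the low-yield library. A library's background was taken as the highest count among its 4 viral probes, which was 7 to 17 counts in the 9 libraries. Against a background of 13 counts, 36 of the 38 probes were at or below background in the low-yield library, with CXCL2 at 18 counts and CXCL9 at 24 counts above it. Levels are given as CPM, counts per 1000000 of a scaled library total. For the low-yield library the raw count is given instead, because a few background counts there become a high CPM. Results are given with all 9 libraries and without the low-yield one. A species index, the mean log2 ratio of macaque-specific to pig-specific signal over GUSB, SDHA, UBB and STK11IP, ran from -3.62 to -0.56 over the 9 libraries, with 1KO.1TG replicate 2 the highest.

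In the 8 other libraries, 21 of the 38 probes were above background in every library, 15 in some and 2, CCL18 and CXCL5, in none. From the lowest to the highest of these 8 libraries a member varied by a median of 4.62-fold, against 3.76-fold over all 767 probes. The narrowest ranges were 1.63-fold for CCL22 and 1.86-fold for CXCR6, and the widest among members above background in all 8 was 887-fold for CXCL8. For members at background in some libraries the fold is not a measured range. The 1KO.1TG replicate 2 library held the highest level of 11 of the 38 members (28.9%, against 22.3% of all probes) and the lowest of 8 (21.1%, against 19.8%). Replicate 1 of the same group held the highest level of 0 members, against 6.26% of all probes.

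**Figure D1:**
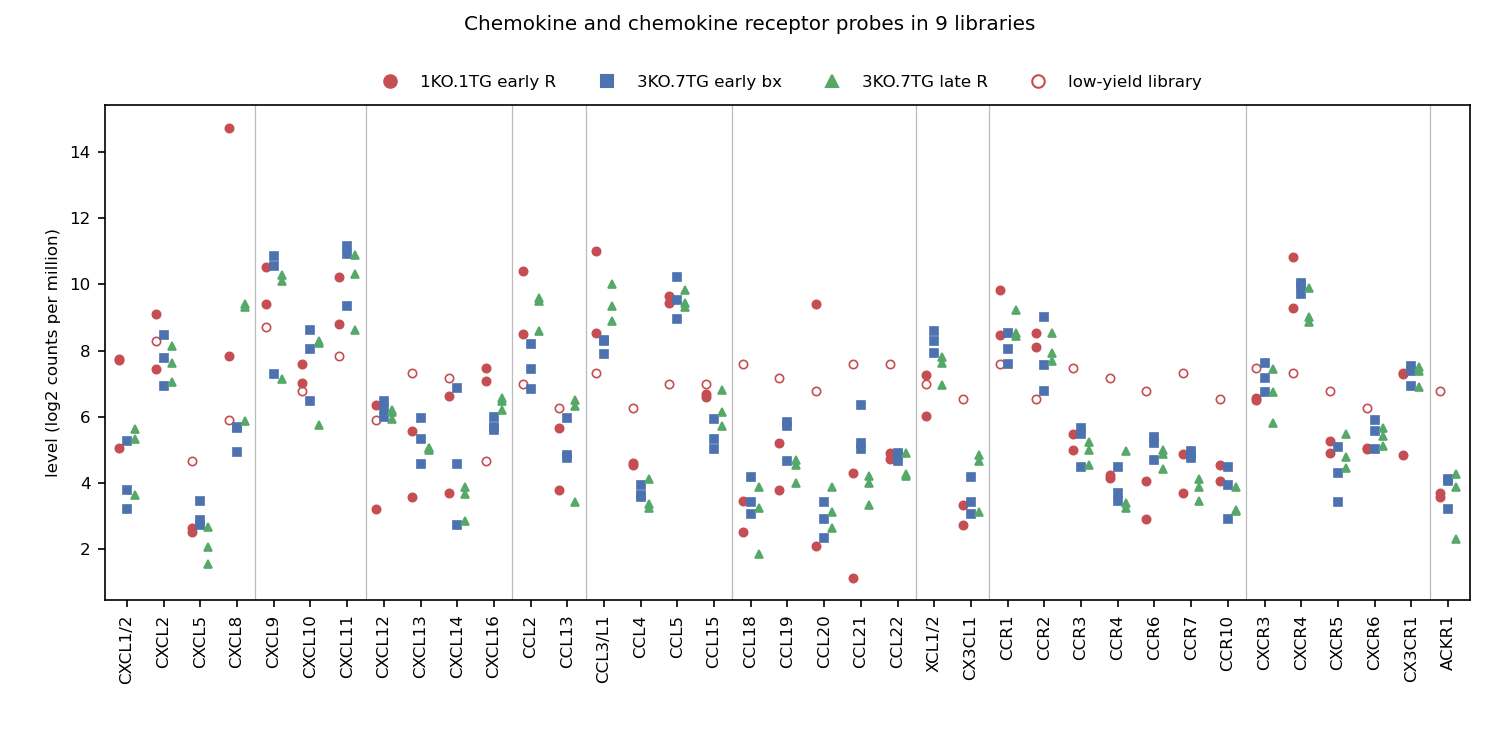
Levels of 37 of the 38 probes in log2 CPM (vertical axis) in the 9 libraries, 1 point a library, grouped by role and coloured by group, with the low-yield library as open circles. Most probes overlap between the 3 groups, while CXCL8 at 27228 CPM and CCL20 at 684 CPM in 1KO.1TG replicate 2 stand far above the other libraries.

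No chemokine or receptor probe passed the test in any of the 3 comparisons (limma, adjusted over 767 probes, called at 0.05), with all 9 libraries or without the low-yield one. Each pair of these comparisons shares a group. Over all probes, 0.391% passed in 1KO.1TG against early bx, 0.391% in 1KO.1TG against late R and 0.0% in late R against early bx. Without the low-yield library these shares were 1.83%, 0.522% and 0.0%. At an unadjusted p under 0.05, limma gave 5 of 38 members in the first comparison, against 13.2% of all probes. CCL15, CXCL1/2, CXCL16 and CXCL8 were the 4 higher in 1KO.1TG, against 6.39% of all probes, and XCL1/2 the 1 lower, against 6.78%. The second gave 0 members against 6.65% of all probes, and the third gave CCL2 alone against 1.69%. Without the low-yield library these counts were 10, 2 and 2 members, against 20.1%, 8.87% and 3.52% of all probes. The members' median log2 fold changes were 0.10, 0.22 and -0.18 in the 3 comparisons, beside -0.07, -0.06 and -0.02 over all probes, and 22, 22 and 14 of the 38 lay above 0, beside 46.5%, 47.3% and 49.2% of all probes. The median SE of a member was 0.71, 0.73 and 0.70 on the log2 scale in the 3 comparisons, and a missed threshold does not show that groups were alike.

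Separation of the individual values was also counted. The 3 values of one group lay wholly above or below those of the other for 4 of 38 members in the first comparison (10.5%, against 13.8% of all probes) and for 2 in the second (against 11.1%). In late R against early bx it was 8 members (21.1%, against 10.2% of all probes). CCL2, CCL3/L1, CXCL16 and CXCL8 were the 4 with higher values in late R, against 6.39% of all probes, and CCL21, CCR7, CXCL5 and XCL1/2 the 4 with lower values, against 3.78%, though CXCL5 was never above background. In late R replicates 1 and 2, CCL21 at 11 and 15 counts did not exceed backgrounds of 12 and 16. In late R replicates 1 and 3, CCR7 at 12 and 14 counts did not exceed backgrounds of 12 and 17. The separations of CCL21, CCR7 and CXCL5 therefore rest on values at background. In the first comparison the separated members were CCL15, CCL4, CXCL8 and XCL1/2, and in the second CCL4 and CCR10. Each of these separations includes a low-yield value below the background of 13 counts, though each also held without that library. Without the low-yield library 11 members did not overlap in the first comparison (against 34.2% of all probes), 5 in the second (against 23.9%) and 8 in the third (against 10.2%).

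**Figure D2:**
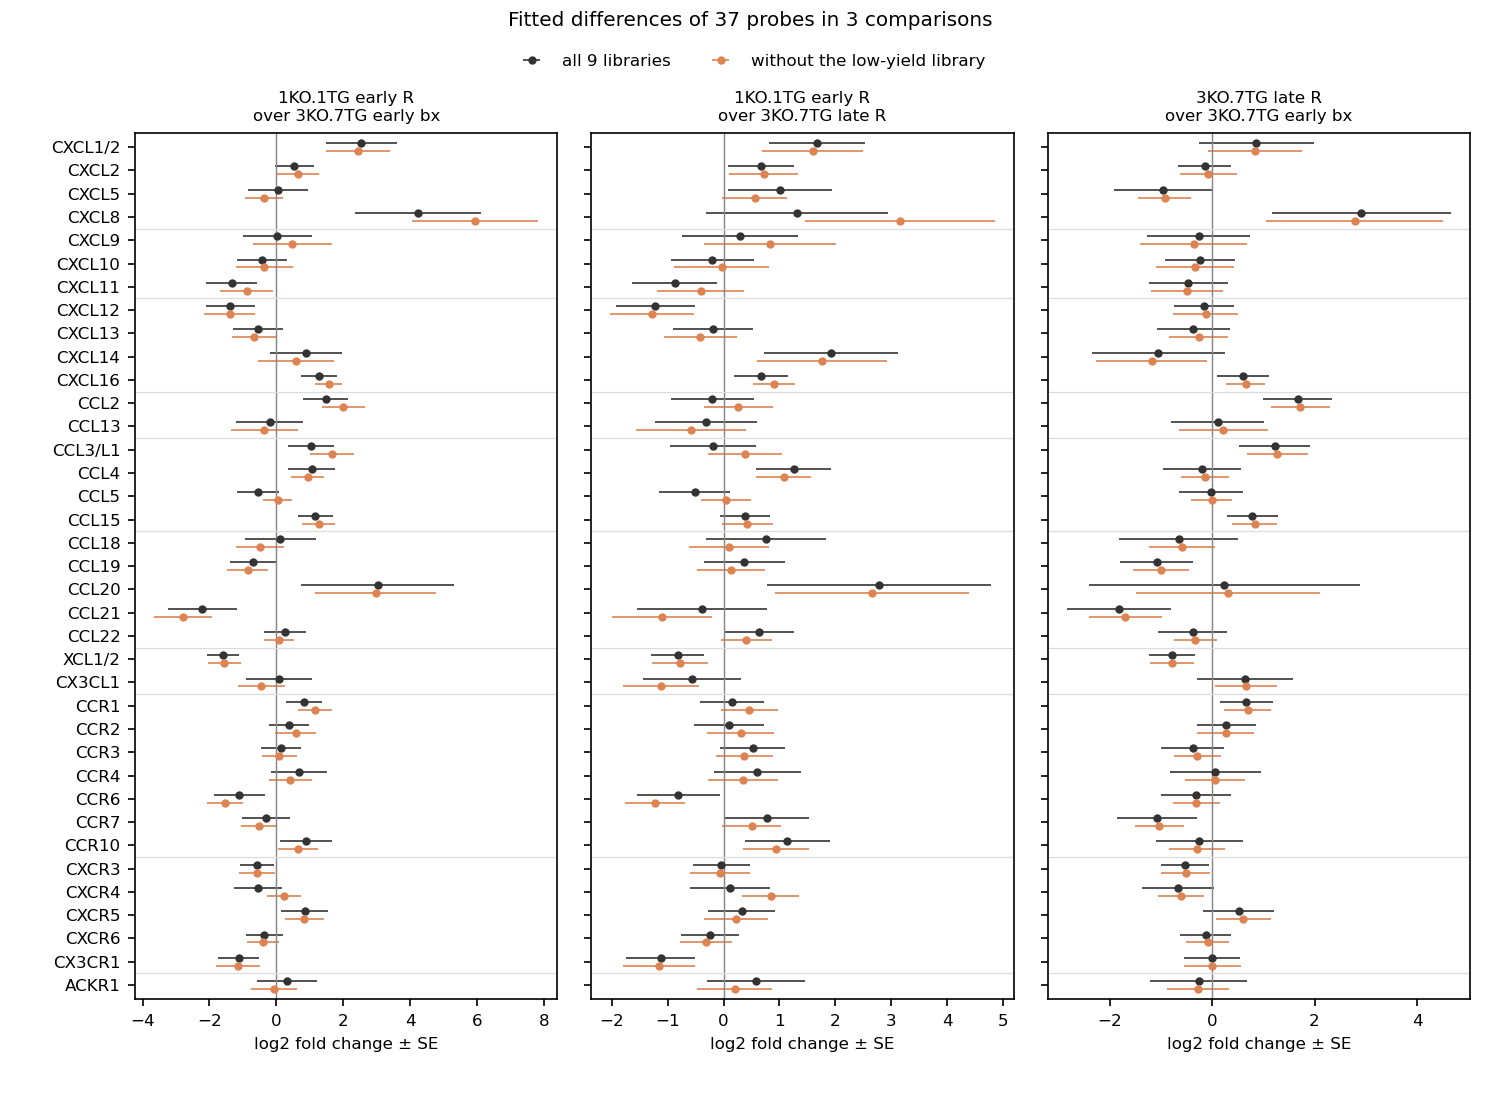
Fitted log2 fold change with its SE (horizontal axis) for 37 of the 38 probes in the 3 comparisons, with all 9 libraries in black and without the low-yield library in orange. The widest bars belong to CXCL8 and CCL20, and no probe passed the adjusted threshold in either fit.

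The neutrophil-attracting CXC ligands included the largest fitted difference of the 38 probes, that of CXCL8 between 1KO.1TG and early bx. CXCL8, the main neutrophil attractant acting through CXCR1 and CXCR2, stood at 227 and 27228 CPM in 1KO.1TG replicates 1 and 2, with 3 counts in the low-yield library. In early bx it stood at 52.1, 50.6 and 30.7 CPM, and in late R at 681, 635 and 58.9 CPM. The early bx libraries were the lowest of the 8, late R replicate 3 lay just above them, and 1KO.1TG replicate 2 stood 120.1-fold above replicate 1 of its own group. CXCL8 differed by a log2 fold change of 4.23 ± 1.88 (SE, adjusted p = 0.350) between 1KO.1TG and early bx, and by 5.93 ± 1.89 (adjusted p = 0.146) without the low-yield library. Without 1KO.1TG replicate 2 it was 2.18. Between late R and early bx it was 2.91 ± 1.75 (adjusted p = 0.990).

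The CXCL1/2 probe, for the neutrophil attractants CXCL1 and CXCL2 together, read 33.1 and 216 CPM in 1KO.1TG, with 12 counts in the low-yield library. It read 13.9, 39.0 and 9.35 CPM in early bx and 40.2, 49.8 and 12.5 CPM in late R. Early bx replicates 1 and 3, at 9 and 10 counts, did not exceed their backgrounds of 13 and 12. Late R replicate 3, at 16 counts, did not exceed its background of 17. CXCL1/2 was thus above background in 5 of the 8 libraries, and its fold changes rest partly on values at background. Apart from 1KO.1TG replicate 2 the values of the 3 groups overlapped. Its log2 fold change in 1KO.1TG was 2.53 ± 1.05 (adjusted p = 0.350) against early bx and 1.67 ± 0.86 (adjusted p = 0.765) against late R. Without 1KO.1TG replicate 2 these were 1.44 and 0.58. Without replicate 1 the first was 3.78 and passed the test (adjusted p = 0.0497), but 1 of the 2 libraries left in the group is then the low-yield one, whose 12 counts lie below its background of 13 and become 212 CPM. Against late R it was 2.91 without replicate 1 and 0.98 without late R replicate 3.

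CXCL2 had its own probe, at 173 and 555 CPM in 1KO.1TG with 18 low-yield counts, 353, 220 and 122 CPM in early bx, and 197, 283 and 132 CPM in late R. These ranges overlapped in all 3 comparisons. CXCL5, an attractant made largely by epithelium, was at 1 to 7 counts in the 9 libraries and never above background.

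Neutrophil markers were likewise highest in 1KO.1TG replicate 2 and lowest in the early bx libraries. The 9 markers measured summed to 5529 and 51441 CPM in 1KO.1TG replicates 1 and 2, to 508, 552 and 687 CPM in early bx, and to 3836, 9987 and 1674 CPM in late R. In these 8 libraries 6 to 9 of the 9 markers were above background, and none was at 0 counts. All 9 had a log2 fold change above 0 in 1KO.1TG against early bx with none called, and without the low-yield library S100A8, S100A9 and MMP9 were called higher. Across the 8 libraries the mean log2 CPM of CXCL1/2, CXCL2 and CXCL8 correlated with that of the neutrophil markers at Pearson's r = 0.94 and Spearman's rho = 0.81, and at r = 0.94 with group means removed. Without the 2 libraries farthest from the median of the markers, r was 0.84. Both means come from the same libraries and scaling, so the correlation is a description. The part of neutrophil content in the ligand levels was not tested.

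PPBP and PF4, platelet chemokines whose names lie outside the rule, are known from platelet granules. PPBP stood at 1239 and 1225 CPM in 1KO.1TG replicates 1 and 2 with 5 counts in the low-yield library, at 96.1, 49.0 and 91.2 CPM in early bx, and at 160, 324 and 206 CPM in late R. Both full-yield 1KO.1TG libraries lay above all 6 others. With all 9 libraries PPBP was not called (log2 fold change 3.09 ± 0.79 against early bx, adjusted p = 0.170). Without the low-yield library PPBP was higher in 1KO.1TG by 4.08 ± 0.46 (adjusted p = 0.0010) against early bx and by 2.51 ± 0.43 (adjusted p = 0.033) against late R. PF4 likewise passed only against early bx without the low-yield library, at 3.22 ± 0.68 (adjusted p = 0.047), and had 2.54 ± 0.77 (adjusted p = 0.206) with it.

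**Figure D3:**
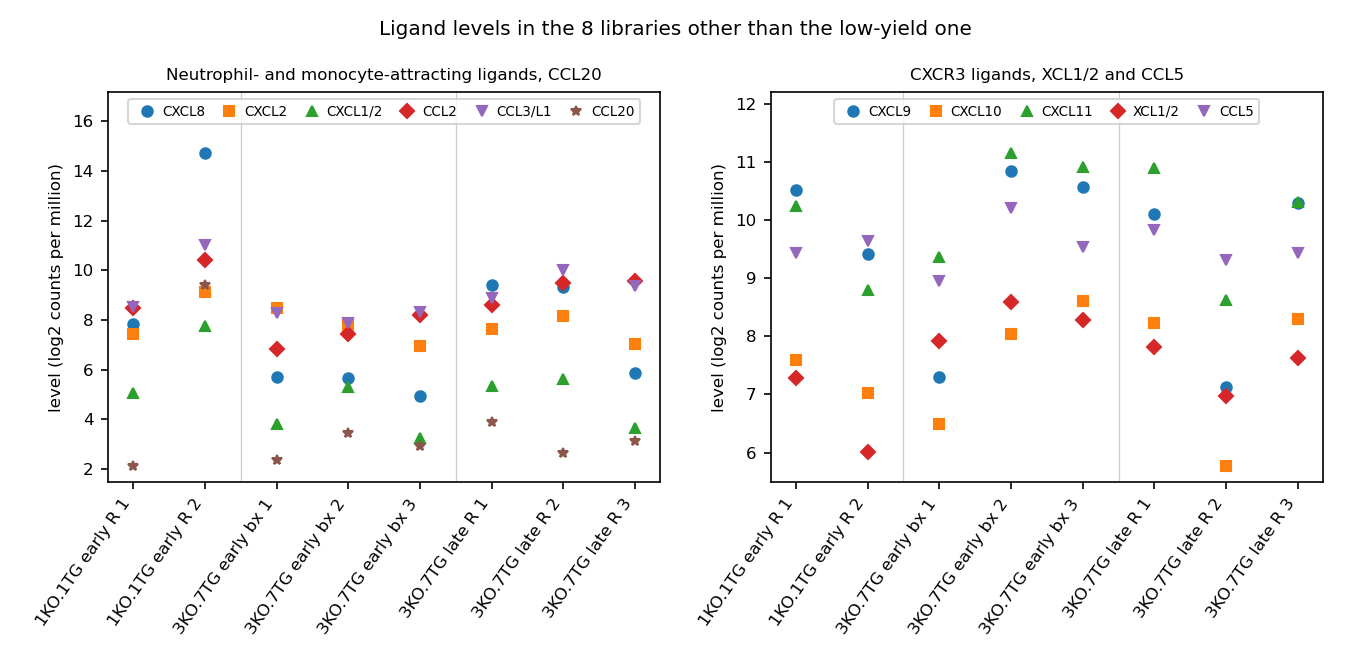
Levels in log2 CPM (vertical axis) of 11 ligand probes in each of the 8 full-yield libraries (horizontal axis), 1 marker a probe. CXCL8, CCL2, CCL3/L1 and CCL20 peak in 1KO.1TG replicate 2, and CXCL9, CXCL10, CXCL11 and XCL1/2 share the lowest library within each group.

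The monocyte attractant CCL2, a ligand of CCR2, read 359 and 1353 CPM in 1KO.1TG with 7 low-yield counts, 115, 175 and 294 CPM in early bx, and 386, 721 and 764 CPM in late R. The 3 early bx values were below all others apart from the low-yield library. CCL2 gave a log2 fold change of 1.67 ± 0.67 (unadjusted p = 0.028, adjusted p = 0.990) in late R against early bx, and 1.47 ± 0.68 (adjusted p = 0.377) in 1KO.1TG against early bx, which was 1.99 ± 0.64 (adjusted p = 0.146) without the low-yield library. Leaving out 1KO.1TG replicate 2 it was 0.69. CCL13, another attractant of monocytes and eosinophils, ran from 10.9 to 91.0 CPM over the 8 libraries, with both ends in late R. The low end, late R replicate 2 at 16 counts, did not exceed its background of 16.

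CCR2, the receptor of CCL2 on inflammatory monocytes, read 278 and 371 CPM in 1KO.1TG with 5 low-yield counts, 109, 190 and 515 CPM in early bx, and 205, 243 and 373 CPM in late R. Its 3 groups overlapped. The 12 monocyte and macrophage markers summed to 17111 and 25831 CPM in 1KO.1TG without the low-yield library, to 8816 to 12217 CPM in early bx and to 12210 to 24690 CPM in late R, and none was at 0 counts. All 12 had a log2 fold change above 0 in late R against early bx, and none was called. The part of monocyte content in the CCL2 values was not tested. Over the 8 libraries the mean of CCL2 and CCL13 correlated with the markers at r = 0.35 (rho = 0.26), and at r = -0.07 with group means removed.

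The macrophage and T cell CC ligands CCL3/L1, CCL4, CCL5 and CCL15 were 4 probes. CCL3/L1, for the macrophage product CCL3 and its near-identical copy, read 367 and 2048 CPM in 1KO.1TG with 9 low-yield counts, 310, 236 and 322 CPM in early bx, and 472, 1035 and 656 CPM in late R. Every late R value was above every early bx value, with a log2 fold change of 1.22 ± 0.69 (adjusted p = 0.990). The probe cannot separate the copies.

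CCL15, a ligand of CCR1 and CCR3, read 97.3 and 103 CPM in 1KO.1TG with 7 low-yield counts, 33.0, 40.7 and 61.0 CPM in early bx, and 52.9, 113 and 70.3 CPM in late R. The values of 1KO.1TG lay above all of early bx, with a log2 fold change of 1.17 ± 0.52 (adjusted p = 0.350). Late R against early bx gave 0.78 ± 0.50 (adjusted p = 0.990), or 0.46 without late R replicate 2.

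CCL4, made by activated T cells, NK cells and macrophages, had 24 and 27 counts in 1KO.1TG, 4 in the low-yield library, 10, 7 and 13 in early bx and 12, 14 and 13 in late R. It was above background in 3 of the 8 libraries, so its log2 fold change of 1.25 ± 0.67 (adjusted p = 0.795) in 1KO.1TG against late R rests on counts close to background. CCL5, a product of cytotoxic lymphocytes and a ligand of CCR1 and CCR3, had a narrow range of 495 to 1184 CPM over the 8 libraries, with both ends in early bx.

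CCR1, carried by monocytes and neutrophils, read 355 and 916 CPM in 1KO.1TG with 11 low-yield counts, 193, 265 and 371 CPM in early bx, and 348, 602 and 367 CPM in late R. It gave a log2 fold change of 0.66 ± 0.52 (adjusted p = 0.990) in late R against early bx, with overlapping values. CCR3, the eosinophil receptor, had 13 to 56 counts in the 8 libraries and was above background in each. In the RefSeq annotation of the macaque genome CCR1, CCR3 and CCR2 follow each other in that order, as do CXCL9, CXCL10 and CXCL11.

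The CXCR3 ligands CXCL9, CXCL10 and CXCL11, which interferon gamma induces, varied widely within early bx and late R. Within 1KO.1TG they varied less, but over 2 full-yield libraries rather than 3, which alone tends to narrow a range. CXCL9 read 1458 and 685 CPM in 1KO.1TG with 24 low-yield counts, 158, 1844 and 1516 CPM in early bx, and 1103, 140 and 1257 CPM in late R. Its lowest and highest libraries differed by 11.7-fold within early bx. CXCL11 read 1205 and 443 CPM in 1KO.1TG with 13 low-yield counts, 658, 2281 and 1938 CPM in early bx, and 1905, 397 and 1277 CPM in late R. The groups overlapped for each of these ligands.

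CXCL10, which draws the same cells, read 193 and 130 CPM in 1KO.1TG with 6 low-yield counts, 90.2, 265 and 391 CPM in early bx, and 299, 54.5 and 313 CPM in late R. Within each group the lowest of the 8 libraries was the same for all 3 ligands, namely 1KO.1TG replicate 2, early bx replicate 1 and late R replicate 2. The 3 comparisons gave log2 fold changes of 0.03 ± 1.03, 0.29 ± 1.03 and -0.26 ± 1.00 for CXCL9. CXCL11 had -1.34 ± 0.77 (adjusted p = 0.506) in 1KO.1TG against early bx, which was -0.89 ± 0.78 (adjusted p = 0.581) without the low-yield library, and -0.87 ± 0.77 (adjusted p = 0.852) against late R. Leaving out 1 library moved the last value to between -1.52 (late R replicate 2) and -0.26 (late R replicate 1), with -1.49 without 1KO.1TG replicate 1 and -0.40 without the low-yield library, and the first to -0.87 without early bx replicate 2.

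CXCR3, their receptor on activated T cells and NK cells, read 91.6 and 95.7 CPM in 1KO.1TG with 10 low-yield counts, 108, 144 and 197 CPM in early bx, and 108, 56.4 and 174 CPM in late R. Late R replicate 2, the lowest in its group for the 3 ligands, was also the lowest of the 8 for the receptor. CXCR3 gave -0.53 ± 0.48 (adjusted p = 0.990) in late R against early bx, and -0.086, -0.93 and -0.26 without late R replicate 2, late R replicate 3 and early bx replicate 3. The 13 T cell markers summed to 1570 to 3221 CPM over the 8 libraries, and their mean log2 CPM correlated with that of the 3 ligands at r = 0.30 (rho = 0.21), at -0.21 without the 2 farthest libraries, and at 0.68 (rho = 0.67) with library size removed.

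XCL1/2, for the ligands XCL1 and XCL2 by which cytotoxic lymphocytes attract XCR1-bearing dendritic cells, had the smallest p of the 38 probes in 1KO.1TG against early bx. It read 155 and 64.6 CPM in 1KO.1TG with 7 low-yield counts, 241, 387 and 311 CPM in early bx, and 225, 126 and 199 CPM in late R. Every early bx value was above every value of the other 2 groups. The log2 fold change was -1.60 ± 0.48 (unadjusted p = 0.0059, adjusted p = 0.206) in 1KO.1TG against early bx, and -1.55 ± 0.50 (adjusted p = 0.146) without the low-yield library. Without 1KO.1TG replicate 2 it was -1.04. It was -0.82 ± 0.48 (adjusted p = 0.804) against late R, where leaving out 1KO.1TG replicate 2 gave -0.27 and replicate 1 gave -1.34, and -0.78 ± 0.45 (adjusted p = 0.990) in late R against early bx. The lowest library within each group was the same as for CXCL9, CXCL10 and CXCL11.

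Markers of NK and cytotoxic cells, which produce XCL1 and XCL2, were ordered otherwise. Their 13 probes summed to 17234 and 12818 CPM in 1KO.1TG without the low-yield library, to 6704, 8029 and 8938 CPM in early bx and to 6266, 5947 and 6295 CPM in late R, and none was at 0 counts. The full-yield 1KO.1TG libraries were thus the highest in these markers and replicate 2 was the lowest of the 8 in XCL1/2. The part of NK and cytotoxic cell content in the XCL1/2 values was not tested. The mean of CCL3/L1, CCL5 and CCL15 had r = 0.02 (rho = -0.14) with these markers over the 8 libraries, and r = -0.64 with group means removed.

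CXCL16, a transmembrane ligand of macrophages that binds CXCR6, read 136 and 177 CPM in 1KO.1TG with 1 count in the low-yield library, 49.1, 52.3 and 64.5 CPM in early bx, and 89.6, 95.4 and 73.3 CPM in late R. Without the low-yield library the 3 groups did not overlap, in the order 1KO.1TG, late R, early bx. Its log2 fold change against early bx was 1.27 ± 0.54 (adjusted p = 0.350) with all 9 libraries and 1.56 ± 0.40 (adjusted p = 0.078) without the low-yield one, and it passed the test when each library was given its own weight (1.41 ± 0.36, adjusted p = 0.046). The sign turned with quantile scaling (-0.69) and with unscaled values (-0.47), both of which keep the low-yield library. Against late R it was 0.67 ± 0.48 (adjusted p = 0.844), or 0.31 without 1KO.1TG replicate 2, -1.25 with quantile scaling and -1.65 unscaled. Late R against early bx gave 0.60 ± 0.50 (adjusted p = 0.990). CXCR6, the receptor on resident T and NK cells, ran from 32.5 to 60.6 CPM over the 8 libraries.

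CXCL12, the stromal ligand that retains CXCR4-bearing cells, read 82.0 and 9.35 CPM in 1KO.1TG with 3 low-yield counts, and 61.2 to 88.7 CPM in all 6 libraries from 3KO.7TG kidneys. Its level in 1KO.1TG replicate 2, at 10 counts, did not exceed background. The log2 fold changes of -1.38 ± 0.73 (adjusted p = 0.445) against early bx and -1.22 ± 0.71 (adjusted p = 0.804) against late R rest on that library, and without it they were 0.04 and 0.20, while without replicate 1 they were -2.46 and -2.31. CXCR4, present on most leukocytes, read 628 and 1833 CPM in 1KO.1TG with 9 low-yield counts, 984, 845 and 1050 CPM in early bx, and 471, 954 and 519 CPM in late R.

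CX3CR1, the fractalkine receptor of patrolling monocytes and cytotoxic lymphocytes, read 156 and 28.9 CPM in 1KO.1TG with 9 low-yield counts, 121, 187 and 166 CPM in early bx, and 169, 118 and 183 CPM in late R. Replicate 2 of 1KO.1TG again lay below the 7 others. The log2 fold change was -1.13 ± 0.61 against early bx (adjusted p = 0.462) and -1.13 ± 0.61 against late R (adjusted p = 0.804), and both were 0.02 without that library and -2.09 without replicate 1. CX3CL1, its membrane-bound endothelial ligand, was above background in 2 of the 8 libraries, late R replicates 1 and 2, at 20 and 38 counts.

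The kidney parenchyma markers were also low in 1KO.1TG replicate 2. Their 10 probes summed to 1155 CPM there, against 9890 CPM in replicate 1, 8080 to 51763 CPM in early bx and 4757 to 14318 CPM in late R. Their part in the CXCL12 and CX3CR1 values was not tested.

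CXCL14, expressed by epithelia, read 12.9 and 99.3 CPM in 1KO.1TG with 8 low-yield counts, 117, 24.1 and 6.68 CPM in early bx and 14.8, 12.9 and 7.22 CPM in late R. It exceeded background in 4 of the 8 libraries. Its log2 fold change in 1KO.1TG against late R was 1.92 ± 1.19 (adjusted p = 0.804), or 0.88 without 1KO.1TG replicate 2 and 3.28 without replicate 1. CXCL13, which draws B cells into follicles, had 12 to 70 counts over the 8 libraries. Its receptor CXCR5 read 10.8 to 44.4 CPM, above background in 6 of them.

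Among the lymphoid and barrier ligands, CCL21, made by lymphatic endothelium and by lymph node stroma, had 20 and 2 counts in 1KO.1TG, 11 in the low-yield library, 22, 22 and 91 in early bx and 11, 15 and 24 in late R. In CPM this was 19.7 and 2.23, then 33.0, 37.3 and 81.5, then 16.2, 10.2 and 18.6, so the 3 early bx libraries were the highest of the 8. The log2 fold change was -2.21 ± 1.04 (adjusted p = 0.385) in 1KO.1TG against early bx and -1.82 ± 1.02 (adjusted p = 0.990) in late R against early bx. CCL21 exceeded background in 5 of the 8 libraries, and the first value was -0.88 without 1KO.1TG replicate 2, which held 2 counts.

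CCL19, the other CCR7 ligand, read 36.9 and 13.8 CPM in 1KO.1TG with 8 low-yield counts, 25.7, 57.2 and 53.0 CPM in early bx and 26.1, 16.2 and 23.2 CPM in late R. It gave -1.08 ± 0.71 (adjusted p = 0.990) in late R against early bx. CCR7, which brings naive T cells and mature dendritic cells to lymph nodes, read 29.2 and 12.9 CPM in 1KO.1TG with 9 low-yield counts, 28.6, 27.4 and 31.6 CPM in early bx and 17.6, 14.9 and 11.0 CPM in late R. Its early bx values were all above its late R values, with -1.08 ± 0.78 (adjusted p = 0.990). Late R replicates 1 and 3, at 12 and 14 counts, did not exceed their backgrounds of 12 and 17, so this fold is not a measured difference.

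CCL20, the CCR6 ligand that epithelium makes in inflammation, exceeded background in 1 of the 8 libraries. It had 768 counts in 1KO.1TG replicate 2, 6 in the low-yield library and 3 to 11 in the 7 others. With all 9 libraries the log2 fold change against early bx, whose libraries were at background, was 3.02 ± 2.27 (adjusted p = 0.642). CCL20 passed the test against both groups when 1KO.1TG replicate 1 was left out (adjusted p = 0.016 and 0.0078), but replicate 2 is then the only library above background in the fit, so no fold is given.

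CCR6, found on B cells and on T cells that make IL-17, read 16.8 and 7.57 CPM in 1KO.1TG with 6 low-yield counts, 41.8, 37.3 and 26.3 CPM in early bx and 31.8, 29.4 and 21.7 CPM in late R. Both full-yield 1KO.1TG libraries lay below all 6 others, but replicate 2, at 8 counts, did not exceed its background of 10. The log2 fold change of CCR6 was -0.81 ± 0.75 (adjusted p = 0.852) against late R, or -1.23 ± 0.54 (adjusted p = 0.530) without the low-yield library and -0.19 without 1KO.1TG replicate 2. Against early bx it was -1.54 ± 0.54 (adjusted p = 0.172) without the low-yield library.

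CCL22, which draws CCR4-bearing T cells, read 18.6 to 30.3 CPM over the 8 libraries and was above background in each, while CCR4 had 7 to 41 counts and exceeded background in 5 of them. CCL18, a macrophage product, had 5 to 12 counts in the 9 libraries. CCR10, a receptor of skin-homing T cells and plasma cells, had 17 and 26 counts in 1KO.1TG and 5 in the low-yield library. It had 10, 13 and 8 counts in early bx and 6, 13 and 19 in late R. CCR10 exceeded background in 4 of the 8 libraries. Its log2 fold change of 1.14 ± 0.76 (adjusted p = 0.804) in 1KO.1TG against late R therefore rests on counts close to background. The atypical receptor ACKR1, which binds chemokines on venular endothelium without signalling through G proteins, exceeded background in 3 of the 8 libraries, with 29 counts in late R replicate 2 and 6 to 13 in the others.

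By role, the 4 neutrophil-attracting ligands had a median log2 fold change of 1.53 in 1KO.1TG against early bx. CXCL1/2, CXCL2 and CXCL8 were above 0, while CXCL5, never above background, was 0.04 with all 9 libraries and -0.37 without the low-yield one. The median of CCL3/L1, CCL4, CCL5 and CCL15 was 1.04 with 3 above 0. The CXCR3 ligands had a median of -0.44 with 1 of 3 above 0, the 8 CC receptors 0.26 with 5 above 0, and the 5 CXC and CX3C receptors -0.54 with 1 above 0. Over all probes the median was -0.07 with 46.5% above 0. These medians and counts include the low-yield library. Without it CXCR4 turned from -0.54 to 0.23 and CCL5 from -0.54 to 0.04. No member of these lists was called.

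Other genes of the chemokine pathway gave no call with all 9 libraries. Of the 9 measured inducers of chemokine genes, 7 were above 0 in 1KO.1TG against early bx, and IL1B, the inflammatory cytokine, had the smallest p. IL1B read 407 and 1638 CPM in 1KO.1TG with 5 low-yield counts, 90.2, 124 and 243 CPM in early bx and 385, 427 and 604 CPM in late R, with early bx the lowest group. Its log2 fold change was 1.91 ± 0.74 (adjusted p = 0.312) in 1KO.1TG and 1.68 ± 0.71 (adjusted p = 0.990) in late R, each against early bx.

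Among 13 adhesion molecules of leukocyte arrest, 9 were above 0 in 1KO.1TG against early bx, led by ICAM1, the endothelial integrin ligand, at 1.63 ± 0.54 (adjusted p = 0.245). VCAM1, another such ligand, had -1.95 ± 0.56 (adjusted p = 0.559) against late R. Of 12 upstream transcription factors, 9 were below 0 in 1KO.1TG against early bx. Leaving out the low-yield library, 5 of the 12 were below 0. The 5 signalling genes downstream of the receptors were led by JAK2, at -1.22 ± 0.57 (adjusted p = 0.385).

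The mean log2 CPM of the 31 members with a mean of at least 20 counts correlated with the species index at r = 0.54 (rho = 0.48) over the 8 libraries. It was -0.46 without the 2 libraries farthest from the median of the index, and 0.96 with library size removed from both.

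**Figure D4:**
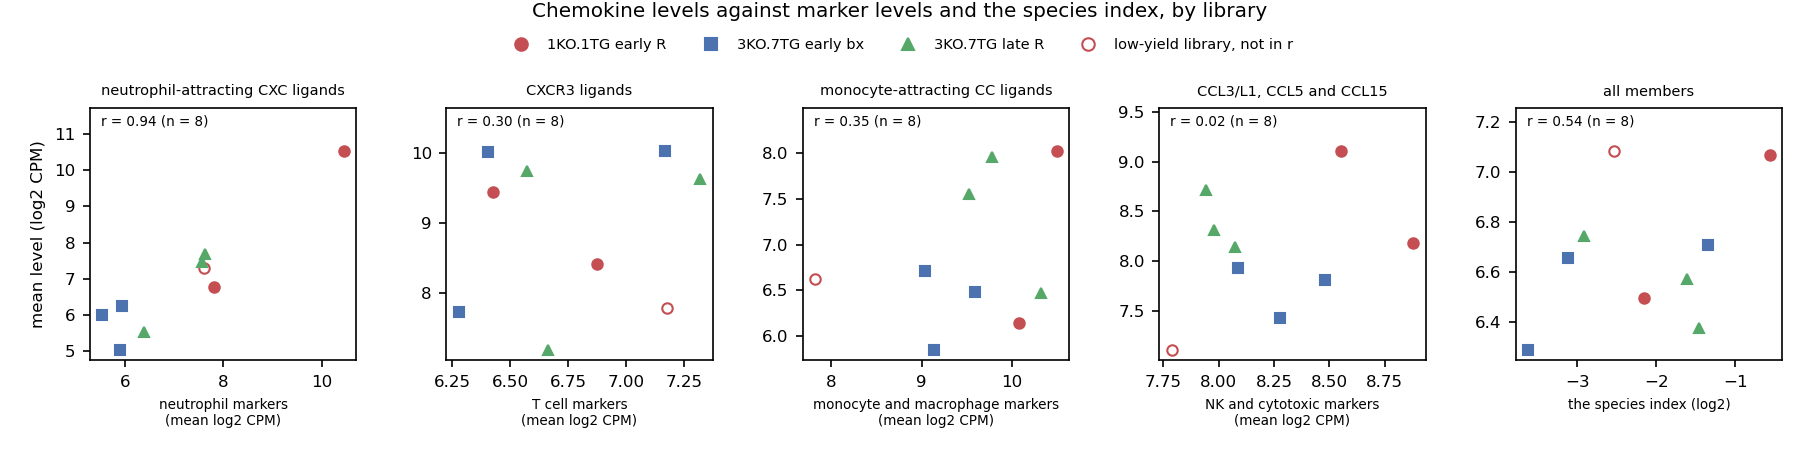
Mean log2 CPM of a ligand group, or of all members, in each library (vertical axes) against the mean log2 CPM of a marker list or the species index (horizontal axes), 1 point a library, with Pearson's r over 8 libraries and the low-yield library open. The neutrophil-attracting ligands gave r = 0.94, with 1KO.1TG replicate 2 far from the rest, and the 4 others lay between 0.02 and 0.54.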

How the data were processed

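The deposited table holds log2 values for 767 probes in 9 libraries. The authors' steps between counting and the table, and the software, are not given in the sources used here. All values were log2 of whole numbers (relative tolerance 1e-04), so raw counts were recovered as powers of 2. The fit was limma 3.58.1 in R 4.3.3: voom (offset 0.5), each total scaled by a trimmed-mean factor (0.761 to 2.71, with trims of 0.3 and 0.05), group means over all 9 libraries, eBayes, two-sided, Benjamini-Hochberg over 767 probes. CPM used the same sizes and offset. The steps were tested on simulated counts with known changes in 1KO.1TG, drawn with the same spread for every library. That test does not cover a library that departs from its group, such as 1KO.1TG replicate 2. The low-yield library had an effective size of 58880.

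The members, role lists, pathway lists, marker lists and tests were chosen with earlier results of these data known, and the probe name CXCL1/2 was placed in its role list after the probe names were seen. Members given full statistics were, per comparison, the 5 above and the 5 below 0 with the smallest unadjusted p, with any member called. The 2 highest of each role list, and the member lists' remaining probes, are given as values or ranges, and in each pathway list the gene with the smallest p. CCL20, CCR6 and CXCL9 fits, and fits of single members under other settings, were added to the text after their values were seen. Correlations use mean log2 CPM over probes with a mean of at least 20 counts in 8 libraries. They are given without p because members were chosen with results known. Of the 38 probes, 36 matched the RefSeq table of T2T-MMU8v2.0, used only for which genes neighbour each other. No sequence is shown, and single values of 1 member and 1 pathway gene are not reported here. Alternatives covered scaling, offset, filter, weights, the replicate block and each library left out.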

Additional observations from a re-analysis of the deposited data

How the results depend on the processing

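Each comparison was fitted under 24 alternatives. The number of members called stayed at 0 except for 1 (CXCL16) in 1KO.1TG against early bx with a weight for each library, and over the fits that leave out each library it was 0 to 2 there (CCL20 and CXCL1/2 without 1KO.1TG replicate 1), 0 to 1 against late R (CCL20), and 0 to 0 in late R against early bx. These counts stand without the share of all probes called in the same fits, so they are not a result particular to the members. The members' median ranged from 0.02 to 0.34, from 0.07 to 0.33 and from -0.21 to 0.02 over the fits that leave out each library. It was 1.01 with pig reference probes (0.81 over all probes) in the first comparison, and with unscaled values -0.48, -1.08 and 0.41 in the 3 comparisons (-0.77, -1.40 and 0.55 over all probes). Among the members given full statistics, signs turned in 10 fits: CXCL16 against early bx with quantile scaling (-0.69) and unscaled (-0.47); CXCL16 against late R with quantile scaling (-1.25), unscaled (-1.65) and no voom weights (-0.012); CXCR3 in late R against early bx unscaled (0.029); and, over the fits without 1 library, CXCL12 (-2.46 to 0.044 against early bx, and -2.31 to 0.20 against late R) and CX3CR1 (-2.09 to 0.016 against each). These 4 turned without 1KO.1TG replicate 2.

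Of the correlations, that of neutrophil-attracting ligands with neutrophil markers lay between 0.84 (without the 2 farthest libraries) and 0.96 (library size removed). The others turned sign for CXCR3 ligands without the 2 farthest (-0.21), monocyte attractants with group means removed (-0.067), CCL3/L1, CCL5 and CCL15 against NK markers with group means removed (-0.64) and without the 2 farthest (-0.75), and all members against the species index without the 2 farthest (-0.46), which was 0.96 with library size removed. With the replicate number as a block, 0 members were called in each comparison and the medians were 0.19, 0.35 and -0.15. Same-numbered libraries correlated at -0.45 to 0.48 and 5 of 18 correlated best with their own number, so the numbers were not taken as pairs. The low-yield library's depth limits all comparisons of 1KO.1TG.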
